A study of Homo sapiens with 45 samples.

Results

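The genes described here are the nucleoporins, the protein subunits of the nuclear pore complex, in HCT116 cells depleted of HNRNPK. The 31 members are textbook subunits of the pore, taken by gene name and grouped by subcomplex; they were chosen with earlier results of these data known, among them the fall of NUP210. All 31 were found among the 28278 gene names of the count table and all 31 passed the filter on low counts, as did 13933 genes in all. HCT116 is an established human colon cancer line. HNRNPK encodes an RNA-binding and DNA-binding protein with a preference for runs of C. Every library came from cells that took up 25 nM siRNA during 72 h in the presence of the transfection reagent RNAiMAX. The siNTC5 group holds 4 RNA libraries from cells given a nontargeting siRNA and the siHNRNPK group holds 4 from cells given HNRNPK siRNA. In each of these groups replicates 1 and 2 were made with a TruSeq stranded kit and replicates 3 and 4 with a Ligation kit (stranded mRNA). A further group, Scramble, holds 2 nontargeting TruSeq libraries whose RNA was purified with RNeasy in place of Maxwell and which were counted in separate tables. ChIP libraries gave 7 lists of domains, for lamin B1, H3K9me3 and H3K27me3 after either siRNA and for H3K9me2 in control cells, each list without replicates. Nothing in the labels says that replicates came from separate cultures, so p-values measure the spread between these libraries, which may be technical.

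The nuclear pore complex is a ring-shaped channel through the nuclear envelope. Structural nucleoporins build a Y-shaped outer ring and an inner ring, transmembrane nucleoporins hold the rings in the membrane, and subunits rich in phenylalanine-glycine (FG) repeats fill the channel and bind the importins and exportins that carry cargo through it. Filaments on the cytoplasmic face release exported mRNA, and a basket on the nuclear face contacts chromatin and mRNA on its way out.

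The siRNA target checked the labels. Levels are given as CPM, read counts scaled to a common library size with the trimmed mean of M values (TMM). HNRNPK measured 934, 967, 822 and 814 CPM in siNTC5 replicates 1 to 4 and 250.3, 223, 157 and 164 CPM in siHNRNPK replicates 1 to 4. The groups were far apart, with means of 884 and 199 CPM and a log2 fold change of -2.17 (standard error, SE, 0.06, edgeR adjusted p = 7.29e-15). Library totals ran from 12107280 to 23633851 counts in the 8 libraries and were 59209169 and 55007171 counts in Scramble. Of 11 colon epithelium markers 9 were tested, 5 rose (KRT18 by 1.41 and KRT8 by 0.98 on the log2 scale), 3 fell (KRT19 by a log2 of -1.27, CLDN3 by a log2 of -1.08), and CDX1 and VIL1 were too low to test. CLDN3 was itself low, with means of 2.20 CPM in siNTC5 and 1.01 CPM in siHNRNPK and overlapping groups. In CPM of the unscaled library totals, fibroblast markers summed to 45.2 to 74.6 in siNTC5 and 75.2 to 120.0 in siHNRNPK, nearly all from COL1A1, with LUM and PDGFRA at 0 in all 8 libraries. Blood cell markers summed to 0.27 to 0.92 CPM with CD3E, CD3D and MS4A1 at 0, and endothelial markers summed to 0.84 to 1.35 CPM in siNTC5 and 1.93 to 3.67 CPM in siHNRNPK, where VWF rose. The part of these markers in the results on nucleoporins was not tested.

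Promoters were read for 28 of the 31 members from RefSeq (GRCh38.p14), for the 250 bases before and 50 bases after each start. Shown here are the 250 bases before the start, 5′ to 3′ on the gene's strand. They are for NUP210, the member that changed most against siNTC5, NDC1, another transmembrane member that fell against siNTC5, and the risers NUP214 and NUP155. NDC1 did not fall against Scramble (log2 0.12, edgeR adjusted p = 0.0587). Larger changes were passed over where the window touches another gene (NUP153, NUP188 and NUP98) or where no promoter entry was found (GLE1). Capitals mark GGGCGG (the GC box), CCAAT and CCCTCCC (a C-rich word of the kind HNRNPK binds), each on either strand; CACGTG (the E-box) was also searched and occurs in none of these 4 stretches.
NUP210 (chr3:13420323-13420572, minus strand): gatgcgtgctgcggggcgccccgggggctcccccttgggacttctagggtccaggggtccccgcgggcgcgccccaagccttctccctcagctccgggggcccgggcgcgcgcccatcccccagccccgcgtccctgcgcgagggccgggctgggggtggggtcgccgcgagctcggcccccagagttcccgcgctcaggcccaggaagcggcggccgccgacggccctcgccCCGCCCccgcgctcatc
NDC1 (chr1:53838297-53838546, minus strand): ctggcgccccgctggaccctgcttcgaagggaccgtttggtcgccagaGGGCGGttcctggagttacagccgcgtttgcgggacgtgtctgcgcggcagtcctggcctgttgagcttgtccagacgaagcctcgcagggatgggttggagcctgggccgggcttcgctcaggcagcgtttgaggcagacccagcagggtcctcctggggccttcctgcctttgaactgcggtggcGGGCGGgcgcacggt
NUP214 (chr9:131125336-131125585, plus strand): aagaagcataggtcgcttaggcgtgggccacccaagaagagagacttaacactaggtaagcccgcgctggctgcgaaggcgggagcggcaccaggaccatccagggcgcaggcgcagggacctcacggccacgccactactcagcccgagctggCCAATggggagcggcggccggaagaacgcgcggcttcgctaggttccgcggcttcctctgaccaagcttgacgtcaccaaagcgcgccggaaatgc
NUP155 (chr5:37371107-37371356, minus strand): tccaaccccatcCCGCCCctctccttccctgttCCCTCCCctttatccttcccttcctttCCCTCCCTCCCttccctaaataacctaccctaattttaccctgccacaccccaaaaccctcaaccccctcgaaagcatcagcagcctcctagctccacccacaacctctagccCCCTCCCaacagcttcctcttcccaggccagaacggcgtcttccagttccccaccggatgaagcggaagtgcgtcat
The NUP210 stretch had the highest GC content of these, 80.8%, with 1 GC box starting 17 bases before the start and no CCCTCCC. The NUP155 stretch was 58.0% GC and pyrimidine-rich, and it held 4 CCCTCCC matches, at 217, 190, 186 and 77 bases before the start, of which the middle pair overlap. Among the 10620 tested genes with a promoter, 95 (0.895%) had 4 or more such matches in the same 250 bases; NUP155 was singled out after its sequence was seen. Over the full windows, CCCTCCC occurred in 5 of 28 member promoters (17.9%), against 32.1% for tested genes and 25.2% for all 27305 promoters. None of the 6 members that fell and had a promoter entry held it, and 2 of the 15 that rose did. GGGCGG occurred in 12 member promoters (42.9%, against 69.1% of tested genes), CCAAT in 11 (39.3%, against 36.5%) and CACGTG in 2 (7.14%, against 9.85%). A match is a description of letters and not a binding site.

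The knockdown comparison asked how pore transcripts differ after HNRNPK depletion. Of the 31 nucleoporins, 24 had an adjusted p under 0.05 in edgeR's quasi-likelihood test with kit in the model, 17 higher and 7 lower. Among all tested genes the share called was 71.5% (35.5% higher, 36.1% lower), so being called was about as frequent among nucleoporins as elsewhere. The changes were small: the median absolute log2 fold change was 0.26 for nucleoporins and 0.41 for all tested genes, and the median signed value was 0.15 against -0.0042. With a minimum absolute log2 fold change of 0.5, 6 members remained, 3 higher (NUP214, NUP153, NUP98) and 3 lower (NUP210, NUP188, GLE1), against 39.9% of tested genes. Counting libraries without a model, all 4 siHNRNPK values lay below all 4 siNTC5 values for 4 members and above them for 13, while 14 overlapped; over all tested genes such separation was found for 56.5%, 28% downward and 28.5% upward. In bulk RNA, fewer cells of a kind and less RNA per cell cannot be told apart.

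**Figure D1:**
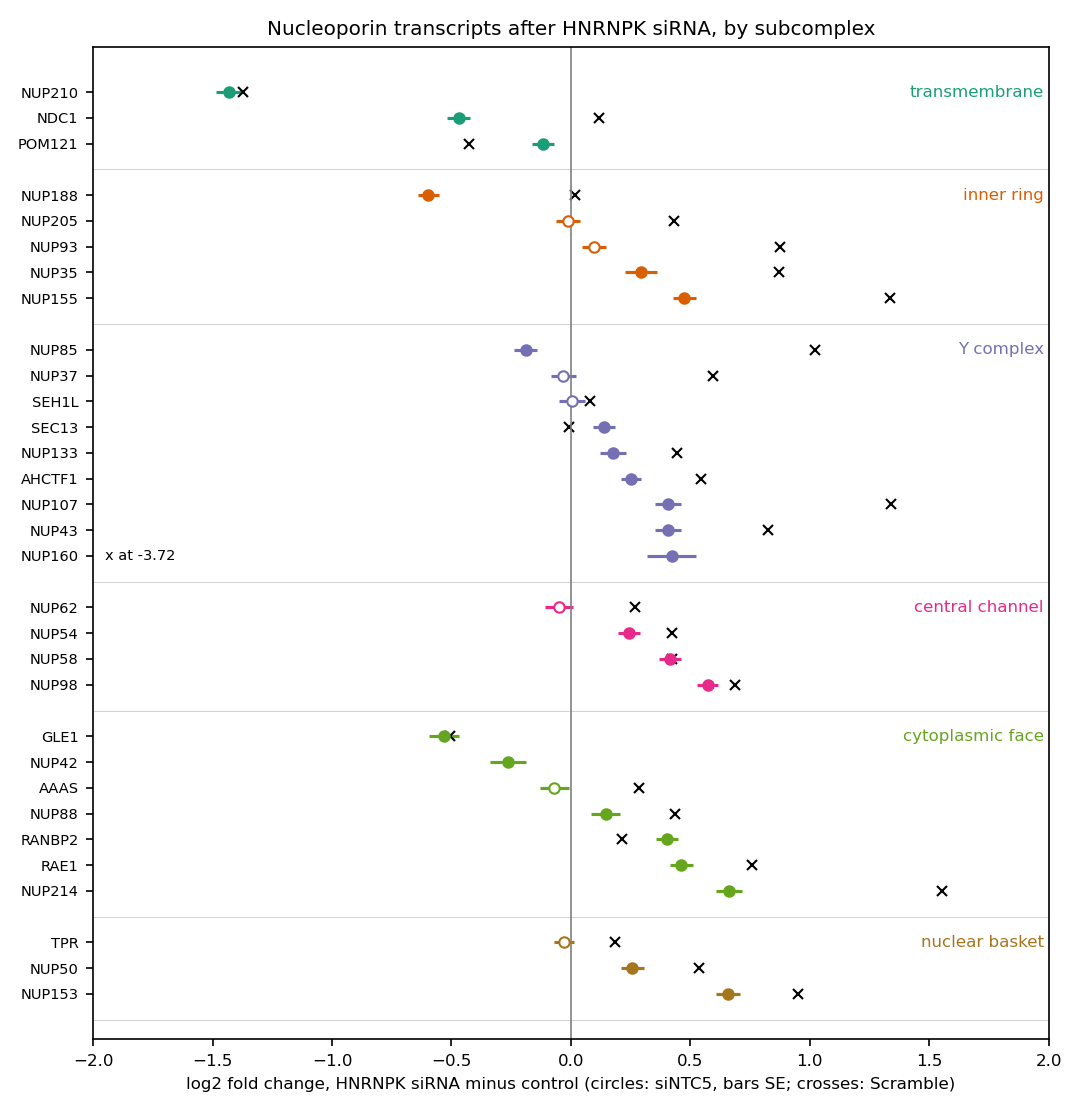
Log2 fold change of each of the 31 nucleoporins (x axis), grouped by subcomplex (colours); circles with SE bars compare siHNRNPK with siNTC5 (filled where the adjusted p was under 0.05) and crosses compare siHNRNPK with Scramble. NUP210 lies far to the left against either control, at -1.43 and -1.37, while the other circles lie between -0.60 and 0.66. The cross of NUP160, at -3.72, lies beyond the axis and is written as text, and NUP42 has no cross.

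Calls and summed levels were also counted by subcomplex, beside the 35.5% of all tested genes that rose and the 36.1% that fell, and nothing particular to a subcomplex is read from them. All 3 transmembrane nucleoporins fell, POM121 by a small and uncertain amount, and their summed level was 531 ± 34.6 CPM in siNTC5 and 321 ± 28.9 CPM in siHNRNPK (SD, n = 4 each), 60.4% of control. Most of that difference was NUP210: without it, the sum of NDC1 and POM121 was 275 ± 24.3 CPM and 225 ± 14.9 CPM (SD, n = 4 each), 81.9% of control. In the central channel 3 of 4 members rose and none fell, and the sum was at 130% of control. Sums stood at 120% for the cytoplasmic face, 116% for the basket, 112% for the Y complex and 95.6% for the inner ring. Over all 31 members the sum was 4658 ± 374 CPM in siNTC5 and 4998 ± 173 CPM in siHNRNPK (SD, n = 4 each). These sums weight members by abundance and transcript length, and differences between subcomplexes were not tested.

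Among the transmembrane members, NUP210 encodes the glycoprotein gp210, whose large lumenal domain encircles the pore, and it lies on chromosome 3 from 13316235 to 13420322 (GRCh38, RefSeq). Its level was 262, 266, 240 and 257 CPM in siNTC5 replicates 1 to 4 and 111, 104, 79.8 and 87.3 CPM in siHNRNPK replicates 1 to 4. Every siHNRNPK library stood below every siNTC5 library, and the Ligation knockdown libraries were the lowest. NUP210 stood at 37.3% of control, a log2 fold change of -1.43 ± 0.06 (SE, edgeR adjusted p = 1.66e-13). Its fall was known when the genes were chosen, so these values describe it and are not independent evidence. Among all tested genes, 482 (3.46%) had a lower log2 fold change. The germline relative NUP210L was near 1 CPM in siNTC5 (0.98) and did not pass (adjusted p = 0.301, edgeR).

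NDC1, the transmembrane subunit needed for pore assembly, ranged from 121 to 160 CPM in siNTC5 and from 91.5 to 109 CPM in siHNRNPK, with no overlap. Its log2 fold change was -0.47 ± 0.05 (SE, edgeR adjusted p = 4.26e-08). POM121, an integral membrane FG nucleoporin that starts pore assembly in interphase, went from 135 to 125 CPM (means), with overlapping groups and a log2 fold change of -0.12 (edgeR adjusted p = 0.0318). That call was lost under 9 of 20 alternative settings. The near-identical gene POM121C, with which reads may be shared, had a log2 fold change of 0.08 (edgeR adjusted p = 0.0867), so the small fall of POM121 is uncertain.

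In the inner ring, 2 of 5 members rose and 1 fell. NUP188, a large solenoid scaffold that pairs with NUP93, lies on chromosome 9 from 128947699 to 129007096. It measured 397, 445, 335 and 337 CPM in siNTC5 and 269, 277, 221 and 233 CPM in siHNRNPK. The groups did not overlap, and within each group the TruSeq libraries were higher than the Ligation libraries. The log2 fold change of NUP188 was -0.60 ± 0.04 (SE, edgeR adjusted p = 7.86e-10). Its paralogous scaffold NUP205 had a log2 fold change of -0.01 (edgeR adjusted p = 0.844) with overlapping groups. NUP155, which anchors the inner ring at the membrane and whose promoter is printed above, rose from 154 to 198 CPM in siNTC5 to 227 to 249 CPM in siHNRNPK (log2 0.47, edgeR adjusted p = 6.11e-08). NUP35, a membrane-binding linker also called NUP53, rose by 0.29 on the log2 scale (adjusted p = 0.000757, edgeR), and the linker NUP93 had 0.10 (adjusted p = 0.0928, edgeR).

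In the Y complex, the outer-ring scaffold, 6 of 9 members rose and 1 fell. NUP160, which forms an arm of the Y, had the largest change and by far the lowest counts of the subcomplex, with 11.3, 9.19, 8.33 and 9.09 CPM in siNTC5 and 12.7, 14.0, 11.9 and 12.1 CPM in siHNRNPK. It lies on chromosome 11 from 47778118 to 47848544. The groups did not overlap, and the log2 fold change was 0.42 ± 0.10 (SE, edgeR adjusted p = 0.00126), resting on 125 to 220 reads a library. In the separately counted Scramble libraries NUP160 stood at 176 CPM, far above both groups, and the cause was not tested. NUP107, a stem subunit, and NUP43, a beta-propeller of the short arm, each rose by 0.41 on the log2 scale without overlap of the groups (edgeR adjusted p = 2.99e-06 and 1.57e-06). AHCTF1, also known as ELYS, which brings the Y complex to chromatin after mitosis, rose by 0.25. The stem subunit NUP133 rose by 0.18 and SEC13, which also serves in COPII vesicle coats, rose by 0.14. NUP85, the core of the short arm, fell, with a log2 fold change of -0.19 (edgeR adjusted p = 0.00141), although its groups overlapped. NUP37 (log2 -0.03) and SEH1L (log2 0.0056), 2 further beta-propellers, did not pass.

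In the central channel, NUP98 supplies FG repeats with a glycine-leucine-FG pattern, and its transcripts also encode the Y-complex subunit NUP96, so counts at this gene cannot be assigned to either protein. It lies on chromosome 11 from 3675010 to 3797554. NUP98 measured 269, 286, 241 and 249 CPM in siNTC5 and 389, 397, 379 and 387 CPM in siHNRNPK. The lowest knockdown library was well above the highest control library. The log2 fold change was 0.57 ± 0.04 (SE, edgeR adjusted p = 9.19e-10). NUP62, NUP58 and NUP54 together form the coiled-coil trimer that projects FG repeats into the channel. NUP58 rose by 0.41 (edgeR adjusted p = 1.76e-07, no overlap) and NUP54 by 0.24 (edgeR adjusted p = 0.000115, overlapping groups) on the log2 scale, whereas NUP62 had -0.05 (edgeR adjusted p = 0.447).

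On the cytoplasmic face, 4 of 7 members rose and 2 fell. NUP214, an FG nucleoporin that binds the exportin XPO1 and the mRNA export helicase DDX19, lies on chromosome 9 from 131125586 to 131234663. It measured 86.4, 95.6, 69.6 and 66.9 CPM in siNTC5 and 137, 143, 104 and 119 CPM in siHNRNPK. The groups did not overlap, and the TruSeq libraries were higher in each. The log2 fold change of 0.66 ± 0.05 (SE, edgeR adjusted p = 2.85e-09) was the largest rise among the nucleoporins. Its partner NUP88 had a log2 fold change of 0.15 (edgeR adjusted p = 0.0393), a call lost under 11 of 20 alternative settings.

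GLE1, the activator of DDX19 in the last step of mRNA export, moved the other way. It lies on chromosome 9 from 128504692 to 128542288 and measured 72.9, 73.5, 70.4 and 71.2 CPM in siNTC5 and 56.6, 45.9, 48.2 and 48.4 CPM in siHNRNPK. The siNTC5 libraries were tightly grouped and all knockdown libraries lay below them. The log2 fold change was -0.53 ± 0.06 (SE, edgeR adjusted p = 3.27e-07). NUP42, the FG nucleoporin that binds GLE1, also fell, by a log2 of -0.26 (edgeR adjusted p = 0.00471), with overlapping groups. RAE1, the mRNA export factor that docks on NUP98, rose by 0.46 (edgeR adjusted p = 1.15e-07). RANBP2, the large Ran-binding and SUMO ligase filament protein, rose by 0.40 (edgeR adjusted p = 3.53e-07). RANBP2 shares sequence with the RGPD genes, of which RGPD3 and RGPD4 passed the filter, both under 2 CPM on average in each group. AAAS, the WD-repeat protein ALADIN, had a log2 fold change of -0.07 (edgeR adjusted p = 0.314).

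In the nuclear basket, NUP153 anchors the basket to the pore and binds importins, and it lies on chromosome 6 from 17615037 to 17706925. It measured 175, 185, 145 and 152 CPM in siNTC5 and 261, 264, 264 and 244 CPM in siHNRNPK. All knockdown libraries were above all controls. The log2 fold change was 0.66 ± 0.05 (SE, edgeR adjusted p = 1.38e-09). RefSeq places an antisense gene, NUP153-AS1, over NUP153; which strand was counted is not given in the sources used here. NUP50, a mobile cofactor of importin-alpha release, rose by 0.26 (edgeR adjusted p = 0.000112) with overlapping groups. TPR, the coiled-coil filament of the basket, had a log2 fold change of -0.03 (edgeR adjusted p = 0.554).

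**Figure D2:**
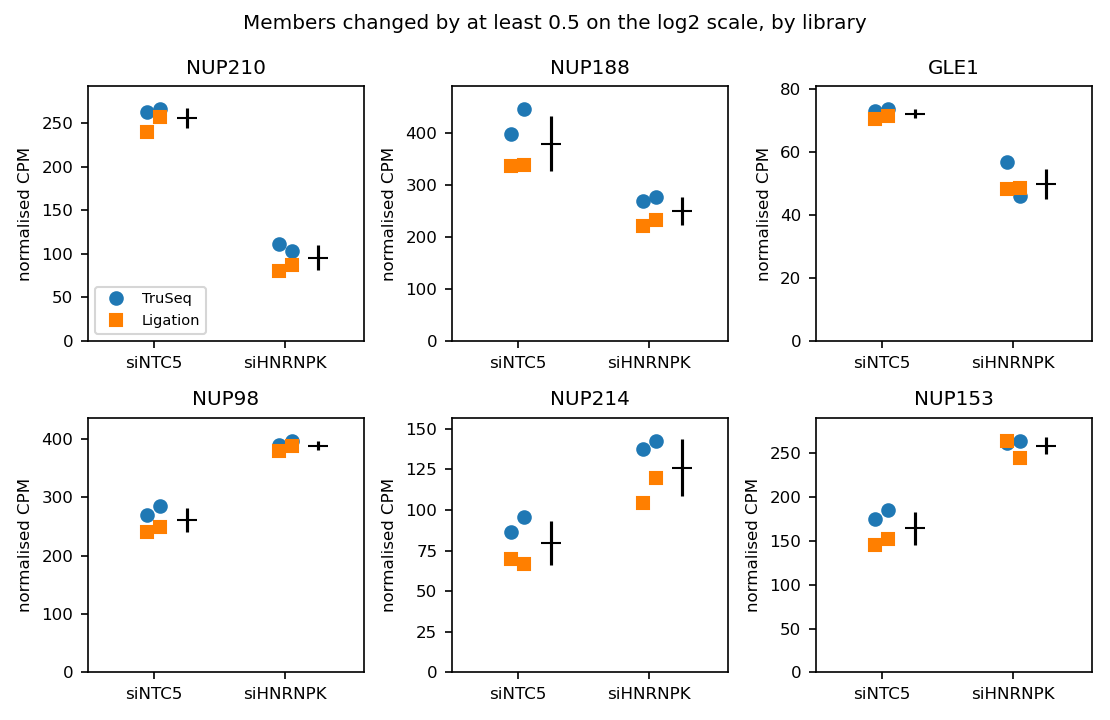
TMM-normalised CPM (y axes from 0) in each siNTC5 and siHNRNPK library for the 6 nucleoporins called at 0.5 or more in absolute log2 fold change; circles are TruSeq and squares Ligation libraries, and horizontal marks with bars give the mean and SD of 4 libraries. NUP210 falls from 240 to 266 CPM down to 79.8 to 111 CPM, and the groups are separate in every panel.

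The knockdown comparison was repeated within each library kit, using the same libraries as the main fit. TruSeq libraries alone gave 19 called nucleoporins, 12 higher and 7 lower (57.8% of tested genes, 28.5% higher and 29.2% lower), and Ligation libraries alone gave 24, 18 higher and 6 lower (68.1% of tested genes, 33.8% higher and 34.3% lower). The sign was the same in both kits for 27 members and opposite for NUP205, SEH1L, NUP62 and TPR. NUP210 had a log2 fold change of -1.29 in TruSeq and -1.58 in Ligation libraries. NUP62 had -0.17 in TruSeq (adjusted p = 0.0486, edgeR) and 0.07 in Ligation (adjusted p = 0.272, edgeR). A test of the difference between kits called 0 of 31 members in edgeR (0.129% of tested genes) and 0 with DESeq2's Wald test; at an unadjusted p under 0.05 it gave 7 of 31, against 11.8% of tested genes. The difference was -0.28 for NUP210 (SE 0.09, edgeR adjusted p = 0.215) and 0.26 for NUP62 (SE 0.09, edgeR adjusted p = 0.292). Without siNTC5 replicate 1, NUP62 passed this test (0.32, edgeR adjusted p = 0.0284), and without siNTC5 replicate 2, NUP210 passed (-0.31, edgeR adjusted p = 0.0256); such fits assume that the lone TruSeq control varied like the other libraries. The share of all tested genes called rose as well in these fits, to 2.58% and 4.24%, so 1 of 31 members is near the share elsewhere.

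**Figure D3:**
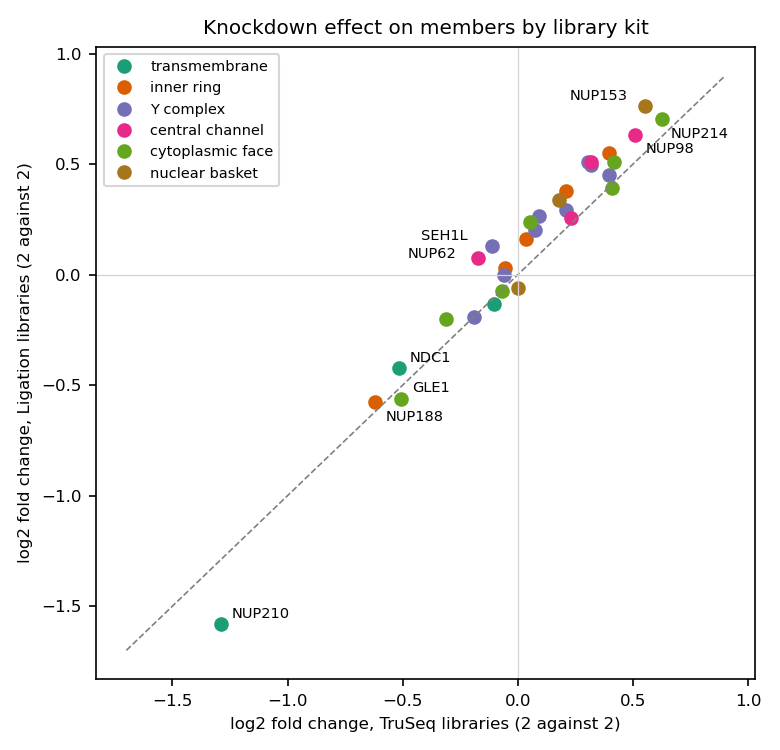
Log2 fold change of each nucleoporin, siHNRNPK against siNTC5, in the TruSeq libraries (x axis) and the Ligation libraries (y axis), coloured by subcomplex; the dashed line marks equal values. Most points lie near the line, NUP210 stands apart at -1.29 and -1.58, and NUP62 and SEH1L lie left of 0 and above 0.

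The Scramble libraries offered a second nontargeting control, fitted with the other 8 libraries on the 25527 names shared by the tables; this left 30 members, since NUP42 is named NUPL2 in the Scramble tables. The nontargeting controls differed from each other at most nucleoporins: 26 of 30 passed between Scramble and siNTC5, 22 of them lower and 4 higher in Scramble (69.3% of tested genes were called in edgeR, 31.8% lower and 37.5% higher). In the same fit 17 of 17 proliferation genes, such as MKI67 and the MCM helicase genes, were lower in Scramble; their part in the nucleoporin difference was not tested. Between siHNRNPK and Scramble 26 of 30 members passed, 22 higher and 4 lower (81.2% of tested genes, 38.8% higher and 42.4% lower). These comparisons share libraries with the siNTC5 comparison and are given side by side. Upper-quartile scaling moved the median of all genes in Scramble minus siNTC5 from 0.04 to -0.10, where 2 members were higher and 25 lower, and in siHNRNPK minus Scramble from -0.04 to 0.15, where 26 were higher and 4 lower. Purification, depth, count table and siRNA cannot be told apart between these controls.

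For NUP210 the control made little difference. Scramble libraries measured 273 and 256 CPM, within or just above the siNTC5 range, and siHNRNPK minus Scramble was -1.37 ± 0.07 (SE, edgeR adjusted p = 3.13e-12). GLE1 behaved alike, at 72.9 and 71.4 CPM in Scramble and a siHNRNPK minus Scramble log2 difference of -0.51 (edgeR adjusted p = 4.9e-06). For NUP188 the choice of control decided the result: Scramble libraries measured 267 and 276 CPM, among the knockdown libraries, so that siHNRNPK minus Scramble was 0.02 (edgeR adjusted p = 0.758). NDC1 likewise had 0.12 against Scramble (edgeR adjusted p = 0.0587), where Scramble minus siNTC5 was -0.60. POM121 had -0.43 against Scramble (edgeR adjusted p = 1.68e-06), where Scramble minus siNTC5 was 0.30. The near-identical POM121C had 0.25 against Scramble (edgeR adjusted p = 0.000185), so the fall of POM121 remains uncertain.

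The 10 members with the largest rises against siNTC5 ran from NUP214 (log2 0.66) down to RANBP2 (0.40). Of these, 9 were higher and NUP160 was lower in siHNRNPK than in Scramble. Among all 30 members in that fit 22 were called higher, and 22 were called lower in Scramble than in siNTC5. The knockdown libraries are shared as well, so the 9 are not independent support for the rises. The log2 difference from Scramble was 1.55 for NUP214, 1.34 for NUP107 and NUP155, 0.95 for NUP153, 0.82 for NUP43, 0.76 for RAE1, 0.69 for NUP98, 0.42 for NUP58 and 0.21 for RANBP2, with edgeR adjusted p from 6.04e-13 to 0.0032. Part of these values is a difference between the controls. Scramble minus siNTC5 was -0.90 for NUP214, -0.94 for NUP107 and -0.87 for NUP155, and among the 9 it was above 0 only for RANBP2 (0.18). NUP85 changed sign, with 1.02 against Scramble (edgeR adjusted p = 1.99e-11) and Scramble minus siNTC5 at -1.22. NUP160 was the extreme case. Its Scramble libraries measured 176 and 176 CPM against a siNTC5 mean of 9.49 CPM, so that siHNRNPK minus Scramble was -3.72 on the log2 scale. A Scramble minus siNTC5 log2 difference at or above that of NUP160 was found for 679 of 14642 genes (4.64%). Differences as large in the other direction were not counted. NUP42, counted as NUPL2, stood at 18.3 CPM of the unscaled library total in both Scramble libraries. On that scale it ran from 27.2 to 45.8 CPM in siNTC5 and from 22.3 to 33.5 CPM in siHNRNPK. The TMM scaling used for other members raises Scramble more than siHNRNPK. NUP210 went from 230 to 273 CPM in Scramble replicate 1 and from 84.5 to 86.6 CPM in siHNRNPK replicate 4. The gap of NUP42 between Scramble and siHNRNPK is therefore uncertain.

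The partners of the pore gave a measure of the wider transport pathway, in the comparison of siHNRNPK with siNTC5; the counts in these lists are to be read beside the 71.5% of all tested genes that were called, 35.5% higher and 36.1% lower. Importins, the import receptors, had 16 of 18 listed genes tested, of which 8 rose and 7 fell. The largest rises were KPNA6 (log2 0.51) and KPNB1 (0.41), the adaptor and the main receptor of classical import, and the largest falls were IPO5 (-1.15, from 569 to 256 CPM) and IPO8 (-0.85), receptors with other cargoes. Exportins had 4 of 7 higher and 2 lower, led by XPO7 (0.35) and XPO5 (0.33, the carrier of pre-miRNAs) and by XPO6 (-0.50, the actin exporter) and CSE1L (-0.44, which returns importin-alpha). In the Ran cycle, the GTPase switch that gives transport its direction, 2 of 6 rose (NUTF2 0.20, RAN 0.18) and 3 fell, the furthest RANBP3 (-0.28) and RANBP1 (-0.19).

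Among mRNA export factors 12 of 21 tested rose and 5 fell. DDX19B (0.52), a gene for the helicase DDX19, and NXF1 (0.51), the main mRNA export receptor, rose most. The THO complex genes THOC3 (-0.69) and THOC2 (-0.39) fell most. DDX19B went from 35.9 to 51.4 CPM (means), whereas its more abundant relative DDX19A fell from 90.3 to 74.6 CPM, with overlapping groups. The log2 fold change of DDX19A was -0.27 (edgeR adjusted p = 0.00164). A rise of DDX19 as a whole cannot be read from DDX19B, and whether the 2 genes share reads is not known. Of 17 genes for pore assembly and surveillance, 6 rose, led by VPS4B (0.51) and TOR1AIP2 (0.50), and 6 fell, led by CHMP3 (-1.84, at 2.06 and 0.54 CPM) and VPS4A (-0.80). Of the proliferation genes 4 of 17 rose (CDK1 0.28, BIRC5 0.22) and 7 fell (MCM5 -1.26, MCM2 -0.64). The median signed log2 fold change was 0.14 for importins, 0.11 for exportins, 0.16 for mRNA export, -0.04 for the Ran cycle and -0.0040 for assembly factors, beside 0.15 for nucleoporins and -0.0042 for all genes.

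Domain lists placed the nucleoporin genes relative to the nuclear lamina and silent chromatin. No nucleoporin gene touched a lamin B1 domain in either list, where 4.06% (control) and 3.46% (knockdown) of the 13485 tested genes with a position did; the counts are 0 of 31 in each. None lay in H3K9me2 domains (1.6% of tested genes) or in control H3K9me3 domains (4.35%). In the knockdown H3K9me3 list 4 genes had some cover (9.56% of tested genes): NUP35 over 60.4% of its body, NUP155 over 20.3%, RANBP2 over 9.8% and AHCTF1 over 2.1%. NUP35, NUP155, RANBP2 and AHCTF1 were all among the members whose transcripts rose, a relation seen after the fact and not tested. Of all 31 members 17 rose, and of all tested genes 35.5% rose. How many of the other genes with such cover rose was not counted. H3K27me3 covered part of RANBP2 (54.8% in control, 53.9% in knockdown), NUP58 (20.3% in each) and SEC13 (30.3% in control, 0 in knockdown). The RefSeq body of RANBP2 is 1122.8 kb long and overlaps 18 other genes, so its cover is not that of its promoter or coding part alone.

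The median distance from a nucleoporin gene to the nearest lamin B1 domain was 1263.1 kb in the control list and 1985.5 kb in the knockdown list, against 1202.9 and 1561.9 kb for tested genes. NUP210 lay 4911.2 kb from a control domain and 361.2 kb from a knockdown domain. NUP35 went from 203.3 to 15292.5 kb and NUP98 from 417.4 to 16887.4 kb. NUP37 was 3.1 kb from a control domain and 189.9 kb from a knockdown domain, while AHCTF1 stayed within 13.1 and 14.1 kb. The lists have no replicates and the read depth behind them is unknown, so none of these differences was tested.

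**Figure D4:**
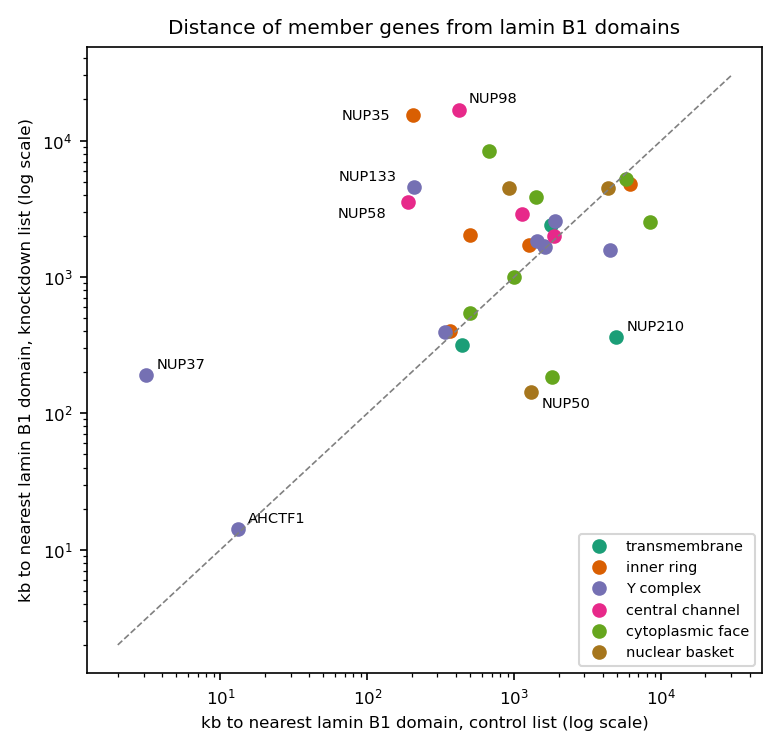
Distance in kb from each nucleoporin gene to the nearest lamin B1 domain in the control list (x axis) and the knockdown list (y axis), both on log scales, coloured by subcomplex; the dashed line marks equal distance. NUP35 and NUP98 lie far above the line and NUP210 far below it, at 4911.2 and 361.2 kb.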

How the data were processed

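The authors deposited raw counts per gene symbol for 10 RNA libraries and 7 domain lists with a deposited score of unstated unit, which was not used. Per the submitters' processing notes, reads were aligned with STAR 2.7.1a and counted with featureCounts (Subread 2.0.6 for the 8-library table) on hg38, with hg19 also listed for Scramble; ChIP reads passed through fastp 0.23.2, Bowtie2 2.5.1 and deepTools 3.1.3. Strand setting, annotation and domain caller are not given in the sources used here. Whether multi-mapping reads were counted is also not given, which bears on members with near-identical relatives. At totals of 12107280 to 23633851 counts, precision was lowest for NUP160, whose level also differs strongly between the count tables.

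Counts were filtered with filterByExpr, scaled by TMM and tested in edgeR 4.0.16 (R 4.3.3) with the quasi-likelihood test and kit as a term, adjusting p over all tested genes by Benjamini-Hochberg at 0.05. A kit interaction and a 10-library fit with 3 groups used the same test. Scramble entered on exact shared names. DESeq2 1.42.0 was an alternative, as were other scalings, filters, single kits, a replicate block, Scramble as added controls and each library left out; settings added later concern NUP210. The steps were run on simulated data in which 200 of 13933 genes changed, of which 197 were called, along with 11 unchanged genes. Far fewer genes changed there than were called in the real comparison, so the accuracy of the real calls was not tested. A gene counted as within a domain class at 50% of its RefSeq body or more, and any overlap was also counted. Exact motif matches were searched on both strands.

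Same-numbered libraries correlated in their deviations from the group means (r across genes 0.1004, 0.4246, 0.3365 and 0.2653 for replicates 1 to 4); the numbers come from the labels, which do not say what they share. After removing the kit effect, r was -0.191, -0.156, -0.281 and -0.252. Fitting kit and group to so few libraries by itself makes such residuals correlate negatively. These values therefore cannot show whether same-numbered libraries are related.

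Values in every library are given for called members that moved by 0.5 or more on the log2 scale. They are also given for the member that changed most in each subcomplex. In other lists at most the 2 largest rises and 2 largest falls among called genes are named. DDX19A is named in addition, beside DDX19B. Promoters are printed for NUP210 and for the 3 further members with the largest changes among those with a promoter entry and an upstream window that touches no other gene. The members and lists were chosen with earlier results of these data known.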

Additional observations from a re-analysis of the deposited data

Results flagged for a closer look

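NUP153 in siHNRNPK replicate 4 stood apart from its group, at 244 CPM where the other 3 knockdown libraries measured 261 to 264 CPM. Its gap to the nearest library exceeded Dixon's critical share of the group's range for 4 values. It was the 1 such case among 62 groups of 4 libraries examined, and chance flags about 1 in 20. The library still lay above every siNTC5 library.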

How the results depend on the processing

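Across 619 member values under an alternative setting, 580 kept their direction and their side of the threshold, 32 lost the call, 5 gained it and 2 reversed. Of the 24 members called, 16 were called under each of the 19 alternatives that used siNTC5 controls alone. NUP210 ranged from -1.51 to -1.35 when each library was left out in turn. With a replicate block, 24 members were called, 17 higher and 7 lower, and no member's call changed. The count of lower members was 4 without a kit term and 3 with Scramble added as controls, where the share of all tested genes called also went from 71.5% to 62.6% and 51.7%; a minimum absolute log2 fold change of 0.5 left 6 members, 3 higher and 3 lower. With Scramble added, NUP160 (-1.37) and NUP85 (0.10) reversed in sign, and neither was called there. Each differs strongly between the control tables, and the cause was not tested. Under upper-quartile scaling 2 members were higher in Scramble than in siNTC5, against 4. The interaction count ranged from 0 to 1 over fits without 1 library. Counts in the siNTC5 and siHNRNPK libraries were lowest for NUP160, whose level also differs strongly between the count tables. The domain lists have no replicates, and small shifts of POM121, NUP88 and SEC13 depend on the setting.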
